A study of Rattus norvegicus with 6 samples.

Results

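The genes described here are those of the inflammasome and of the main proinflammatory cytokines, Il1a, Il1b, Il1rn, Il18, Casp1, Nlrp3, Pycard, Tnf, Il6 and Nos2, and a member was measured where the annotation of the array paired its symbol with a probe set. That was so for 9 of the 10 listed genes, and Nlrp3 had no paired probe set. All genes, here and below, are the 14217 genes with a probe set paired with a single gene. The 9 genes held 11 probe sets paired with a single gene, and each gene was led by its probe set of highest mean over the 6 arrays, with the others given beside it. Dissociated spinal cord cells of rats aged between postnatal days 1 and 4 were grown for 8 days either on glass covered with polyornithine (control, 3 cultures) or on glass covered with multi-walled carbon nanotubes (CNT, 3 cultures), and RNA of each culture went onto an Affymetrix rat array of its own. All cultures came from rats of the Sprague-Dawley strain by the labels and Wistar by the study's methods, and the substrate is the only difference the labels give. Such cultures hold neurons together with glia, microglia and meningeal cells, and no cell type was separated before RNA was taken, so that fewer cells of a type and less RNA per cell cannot be told apart. The comparison of CNT with control asks whether the inflammatory genes of the culture differ between both substrates.

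As background, the inflammasome is a protein complex of the cytosol, assembled mainly in macrophages and microglia. A sensor such as Nlrp3 recruits the adaptor encoded by Pycard, which gathers and activates caspase-1, the product of Casp1. Caspase-1 cuts the precursors of interleukin-1 beta (Il1b) and interleukin-18 (Il18) into secreted cytokines, while interleukin-1 alpha (Il1a) acts on the same receptor without that cut and Il1rn encodes the antagonist of this receptor. Tnf and Il6 are cytokines made without the inflammasome, and Nos2 encodes the inducible nitric oxide synthase of activated macrophages and microglia. Transcripts of several of these genes are induced in microglia by NF-kappaB, and an array reads the transcript and neither the cut protein nor the assembled complex.

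Values are log2 expression after RMA normalization, in which a difference of 1 is a doubling, and the level of a probe set is compared between cultures, not with that of another probe set. Microglia and macrophage markers, read as the mean of 18 of 20 listed genes, stood at 11.74, 12.38 and 12.30 in control cultures 1, 2 and 3 and at 12.56, 12.62 and 12.06 in CNT cultures 1, 2 and 3. Of these 18 genes 16 had a higher mean in CNT cultures, beside 58.5% of all genes. The other 2 were Tmem119, with a log2 fold change of -0.34, and P2ry12, with -0.07. The median log2 fold change was 0.31 for the 18 genes and 0.03 for all genes. Interferon-induced genes, which set control 3 apart from the other control cultures, had means of 9.09, 8.31 and 10.93 in control and 11.19, 11.72 and 12.12 in CNT cultures (19 of 20 listed genes). As a sign of RNA quality, beta-actin read higher at its 3′ than at its 5′ end by 2.20, 0.62 and 0.66 in control and by 0.92, 2.20 and 1.72 in CNT cultures. Mean levels of the other cell type lists ranged from 9.27 to 9.51 in control and from 9.18 to 9.40 in CNT cultures for neurons, and from 11.30 to 11.66 and from 11.26 to 11.51 for astrocytes. Oligodendrocyte means lay from 11.19 to 11.94 in control and from 10.999 to 12.10 in CNT cultures, and endothelial means from 6.96 to 7.36 and from 7.33 to 7.43. Fibroblast and meningeal means lay from 12.68 to 13.004 in control and from 11.33 to 12.71 in CNT cultures. Lymphocyte means lay from 6.93 to 7.38 and from 6.99 to 7.49, and neutrophil means from 5.71 to 6.26 and from 5.94 to 6.36. The part of these differences in the results on the inflammatory genes was not tested, except where values relative to the microglia markers are given.

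None of the 9 measured genes passed the test of limma over all genes, in which each of them had an adjusted p of 0.999 and 0% of the 14217 genes passed. The genes of the caspase-1 machinery, Casp1 and Pycard, and Il18 were nevertheless higher in every CNT culture than in every control culture, while the other 6 genes overlapped between the groups. Such a separation towards higher values was seen in 5.94% of all genes, and one towards lower values in 2.05%, which none of the 9 genes showed. The log2 fold change was positive in 8 of the 9 genes and in 58.5% of all genes, and its median was 0.68 for the 9 genes and 0.03 for all genes. Casp1, Pycard and Il18 were also the 3 genes with an unadjusted p under 0.05 in limma, against 2.41% of all genes on the higher side. The permutation tests given below are exact and two-sided, and the smallest p they can give with 3 cultures in each group is 0.1.

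**Figure D1:**
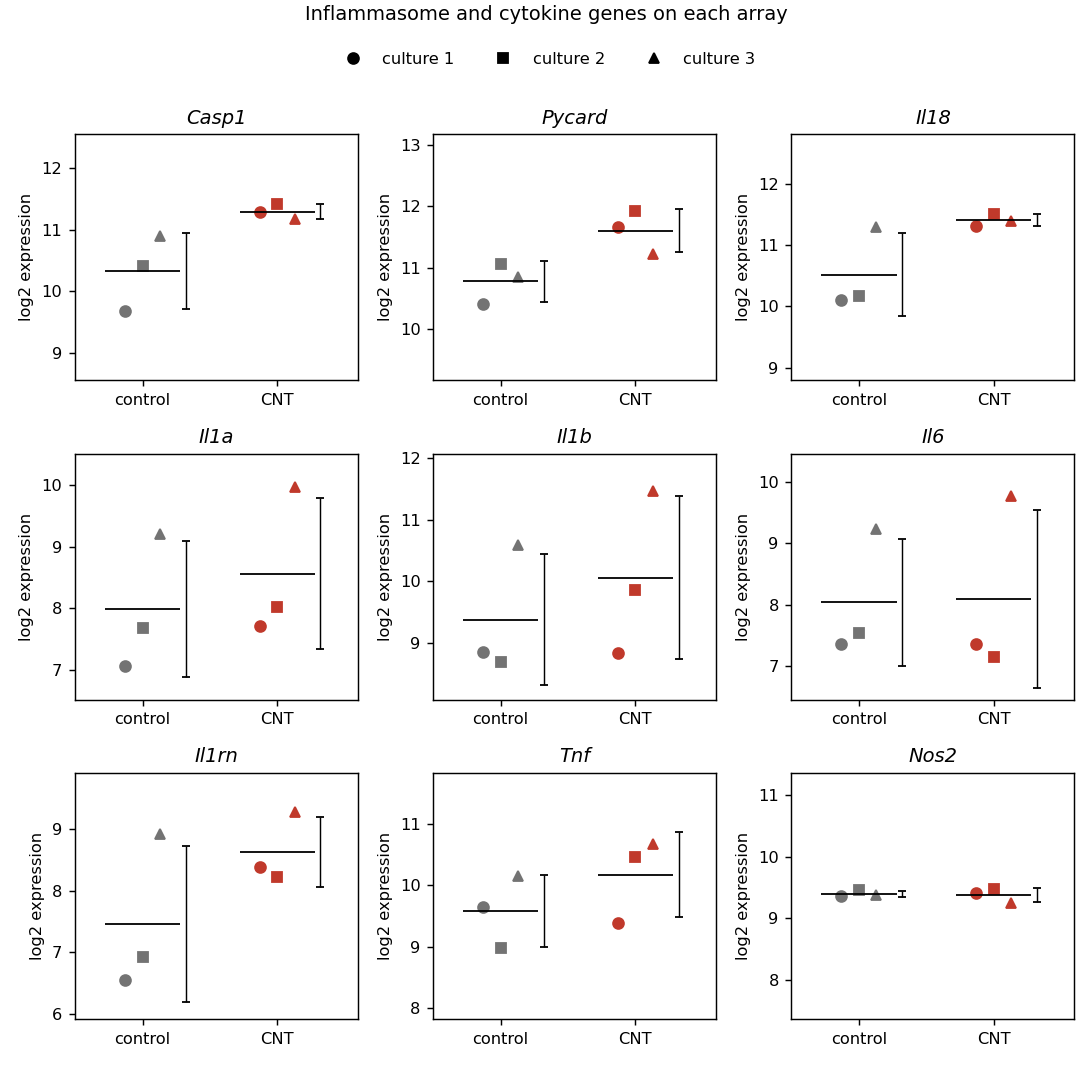
Log2 expression (RMA, vertical axis) of the lead probe set of each of the 9 measured genes in the 3 control and the 3 CNT cultures, with a marker shape for the number of the culture, a horizontal line at the mean of each group and a vertical bar of 1 SD on either side of it. Casp1, Pycard and Il18 are higher in all CNT cultures than in all control cultures, while in Il1a, Il1b and Il6 culture 3 of each group lies above the others.

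Casp1, the protease itself, stood at 9.68, 10.42 and 10.90 in control cultures 1, 2 and 3 and at 11.29, 11.42 and 11.17 in CNT cultures 1, 2 and 3. The lowest CNT culture exceeded the highest control culture by 0.268, and the control cultures were more widely spread (10.33 ± 0.62 (SD, n = 3)) than the CNT cultures (11.30 ± 0.13 (SD, n = 3)). The log2 fold change was 0.96 (SE 0.30, 95% interval 0.22 to 1.70), which is 1.95-fold (unadjusted p = 0.0188 and adjusted p = 0.999 in limma, exact permutation p = 0.1). Without control 1, the lowest culture, it was 0.64, and without control 3 it was 1.25. Control 1 was also the lowest culture for the microglia markers.

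Pycard, the adaptor that joins sensor and caspase, stood at 10.42, 11.07 and 10.85 in control and at 11.66, 11.93 and 11.23 in CNT cultures. All CNT values lay above all control values, by a gap of 0.163 between CNT 3 and control 2. The mean was 10.78 ± 0.33 (SD, n = 3) on polyornithine and 11.61 ± 0.35 (SD, n = 3) on CNT, a log2 fold change of 0.83 (SE 0.24, 95% interval 0.24 to 1.41) or 1.77-fold (unadjusted p = 0.0132 and adjusted p = 0.999 in limma, exact permutation p = 0.1). In order, the 6 cultures followed those of the microglia markers in part, since control 1 was the lowest and CNT 2 the highest in both. These were also the cultures with the largest beta-actin differences, 2.20 in each, and Casp1 and Il18 had the same lowest and highest cultures. With both left out, the log2 fold change was 0.48 for Pycard, 0.57 for Casp1 and 0.62 for Il18. With the beta-actin difference as a covariate it was 0.91, 1.14 and 0.98. The part of RNA quality in this order was not tested.

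Il18, the caspase-1 substrate that microglia and macrophages keep as a ready precursor, stood at 10.10, 10.16 and 11.29 in control and at 11.32, 11.50 and 11.39 in CNT cultures. The groups were separated by a gap of only 0.0232, between control 3 and CNT 1, and control 3 stood 1.13 above the other control cultures. Il18 had a log2 fold change of 0.88 (SE 0.33, 95% interval 0.09 to 1.68), or 1.85-fold, between a control mean of 10.52 ± 0.67 (SD, n = 3) and a CNT mean of 11.40 ± 0.09 (SD, n = 3) (unadjusted p = 0.0343 and adjusted p = 0.999 in limma, exact permutation p = 0.1). It was 1.27 without control 3 and 0.67 without control 1.

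The promoters of these 3 genes are shown as the 250 bases before the annotated start (RefSeq, build GRCr8), since their transcripts lay higher in all CNT cultures. Capitals mark any match of the core of the interferon-stimulated response element (GAAA, any 2 bases and GAAA again), of an NF-kappaB motif (GGGA, any base and TTTCC) or of a TATA box (TATAAA), each searched on both strands. Casp1 lies at chr8:10872580-10872829 (+ strand), Il18 at chr8:59801822-59802071 (+ strand) and Pycard at chr1:192033420-192033669 (- strand).
Casp1: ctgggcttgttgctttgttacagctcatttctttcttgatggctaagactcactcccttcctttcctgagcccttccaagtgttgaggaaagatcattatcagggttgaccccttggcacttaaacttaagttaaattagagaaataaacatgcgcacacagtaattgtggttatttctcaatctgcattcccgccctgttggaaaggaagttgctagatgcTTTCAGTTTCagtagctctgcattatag
Pycard: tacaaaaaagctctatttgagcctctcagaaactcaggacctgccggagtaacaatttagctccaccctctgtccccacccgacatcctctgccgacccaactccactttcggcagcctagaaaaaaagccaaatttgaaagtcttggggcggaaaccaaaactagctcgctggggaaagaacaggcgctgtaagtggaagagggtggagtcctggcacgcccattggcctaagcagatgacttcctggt
Il18: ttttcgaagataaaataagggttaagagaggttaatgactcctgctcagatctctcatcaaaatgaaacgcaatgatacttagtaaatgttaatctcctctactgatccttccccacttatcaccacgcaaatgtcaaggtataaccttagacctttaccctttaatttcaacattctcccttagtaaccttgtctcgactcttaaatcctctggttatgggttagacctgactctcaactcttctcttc
The interferon-stimulated response element core occurred in the Casp1 promoter, as TTTCAGTTTC from 28 to 19 bases before the start, where the reverse strand reads the motif. It occurred in no other of the 9 listed genes with a promoter in the table (Nlrp3 included, Nos2 not) and in 3.41% of all 33469 promoters. None of the 3 windows held the TATA box or the NF-kappaB letters. The start used for Casp1 is not the outer edge of the gene in RefSeq, and a match of letters does not show that a factor binds there.

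The interleukin-1 cytokines and Il6 had the highest value of each group in its culture 3, and their groups overlapped. Il1b stood at 8.84, 8.68 and 10.60 in control and at 8.84, 9.86 and 11.47 in CNT cultures. Control 3 lay 1.76 above the higher of the other control cultures and CNT 3 lay 1.61 above the higher of the other CNT cultures, and the groups overlapped. Between the groups Il1b had a log2 fold change of 0.68 (SE 0.80, 95% interval -1.26 to 2.62), or 1.61-fold (exact permutation p = 0.6). It was -0.024 without CNT 3 and 1.30 without control 3.

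Il1a stood at 7.06, 7.67 and 9.21 in control and at 7.70, 8.02 and 9.97 in CNT cultures, so that culture 3 again exceeded the others, by 1.54 and 1.95. Its log2 fold change was 0.58 (SE 0.77, 95% interval -1.30 to 2.46), or 1.496-fold (exact permutation p = 0.5), and -0.12 without CNT 3. A further Il1a probe set gave 5.27, 5.93 and 7.03 in control and 6.001, 5.65 and 7.43 in CNT cultures. Both probe sets put culture 3 highest in each group, and the log2 fold change of the further one was 0.28 (SE 0.61).

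Il6, a cytokine that acts through the shared receptor subunit gp130, stood at 7.36, 7.54 and 9.23 in control and at 7.37, 7.15 and 9.76 in CNT cultures. Culture 3 exceeded the others by 1.70 in control and by 2.40 in CNT. Between the substrates the means were close to each other, 8.04 ± 1.04 (SD, n = 3) on polyornithine and 8.10 ± 1.45 (SD, n = 3) on CNT, and the log2 fold change was 0.053 (SE 0.83, 95% interval -1.98 to 2.08, exact permutation p = 0.9). It was -0.78 without CNT 3 and 0.65 without control 3.

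Control 3 was the highest control culture in 7 of the 9 genes, beside 26.1% of all genes, and CNT 3 the highest CNT culture in 5, beside 34.5%. Both held in 5 genes, namely these 3, Il1rn and Tnf, beside 15.4% of all genes. A lead of over 1 log2 of culture 3 in both groups, a level chosen after the values were seen, was found in Il1a, Il1b and Il6 and in 0.549% of all genes (78 genes). The mean of the interferon-induced genes was likewise highest in culture 3 of each group, at 10.93 in control and 12.12 in CNT, and 3 of its 19 genes (Isg15, Ifit3 and Rsad2) and the neuronal gene Snap25 had this lead of over 1 log2 in both groups. The mean of the microglia markers in control 3 was 12.30, above the 11.74 of control 1 and below the 12.38 of control 2, and in CNT 3 it was 12.06, the lowest of the CNT cultures. The part of either list in the pattern was not tested. Casp1 and Pycard were not highest in CNT 3. CNT 3 was the lowest CNT culture in both, by 0.25 and 0.70 below the higher of the others, and control 3 was 0.48 above the others in Casp1 and 0.22 below control 2 in Pycard. With control 3 and CNT 3 left out, a comparison added after the values were seen, the log2 fold change was 0.59 for Il1b, 0.49 for Il1a and -0.18 for Il6.

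**Figure D2:**
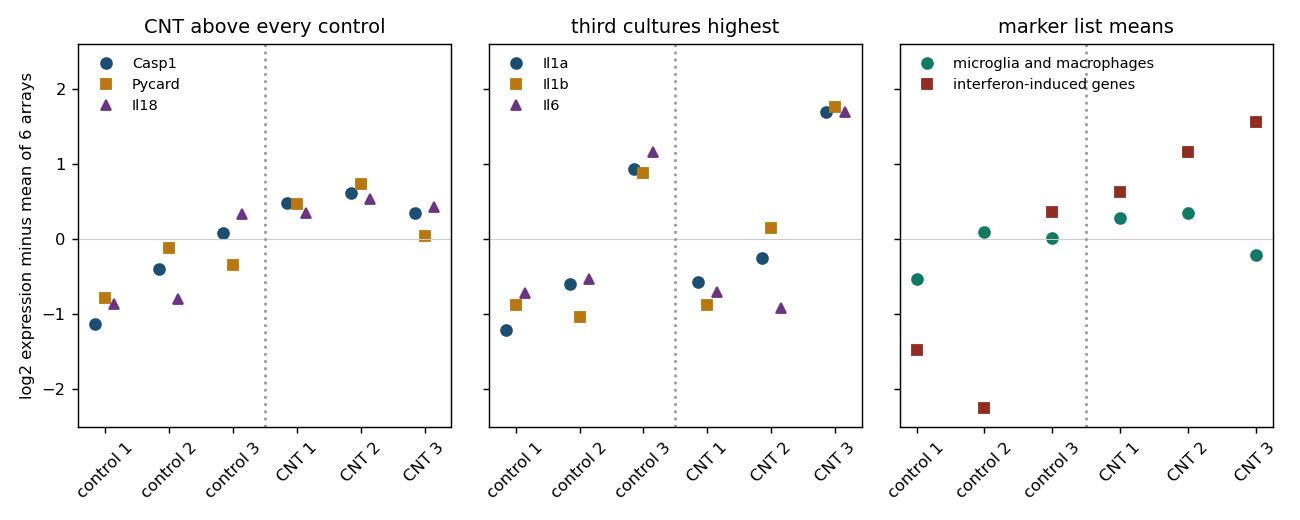
Log2 expression centred on each gene's own mean (vertical axis) across the 6 cultures (horizontal axis), for Casp1, Pycard and Il18, for Il1a, Il1b and Il6, and for the means of the microglia and of the interferon-induced lists. Il1a, Il1b and Il6 have their highest control value in control 3 and their highest CNT value in CNT 3, whereas Casp1 and Pycard are lowest in CNT 3 among the CNT cultures.

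The promoters of these 3 cytokine genes are printed in the same way, for comparison with the inflammasome genes above. Il1a lies at chr3:136990018-136990267 (- strand), Il1b at chr3:137036582-137036831 (- strand) and Il6 at chr4:5894576-5894825 (- strand).
Il1a: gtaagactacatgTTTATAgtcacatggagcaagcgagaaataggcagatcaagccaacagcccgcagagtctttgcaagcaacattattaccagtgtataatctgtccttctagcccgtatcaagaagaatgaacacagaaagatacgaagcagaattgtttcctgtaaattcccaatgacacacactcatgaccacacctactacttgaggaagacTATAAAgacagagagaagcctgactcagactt
Il1b: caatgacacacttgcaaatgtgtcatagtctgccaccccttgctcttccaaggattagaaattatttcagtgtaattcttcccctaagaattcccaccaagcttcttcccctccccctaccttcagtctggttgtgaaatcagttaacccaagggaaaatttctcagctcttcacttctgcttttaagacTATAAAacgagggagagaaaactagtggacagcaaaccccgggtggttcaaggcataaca
Il6: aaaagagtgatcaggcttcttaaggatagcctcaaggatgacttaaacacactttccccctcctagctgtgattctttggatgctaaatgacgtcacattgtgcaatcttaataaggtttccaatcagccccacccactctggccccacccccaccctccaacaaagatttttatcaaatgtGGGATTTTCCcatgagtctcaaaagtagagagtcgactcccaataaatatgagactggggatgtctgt
A TATA box match lay from 32 to 27 bases before the start of Il1a and from 60 to 55 bases before that of Il1b, and a further match in Il1a lay far upstream on the reverse strand. As for Casp1, the starts used for Il1a, Il1rn and Nlrp3 are not the outer edges of these genes in RefSeq. TATAAA was held by 4 of the 9 promoters (Il1a, Il1b, Il1rn and Tnf) and by 12.9% of all promoters. The NF-kappaB letters were found in Il6 alone, as GGGATTTTCC from 68 to 59 bases before the start, and in 0.314% of all promoters. Il6 also held the cAMP response element TGACGT (6.95% of all promoters) and Il1a the AP-1 motif TGANTCA (6.34%). The C/EBP motif TTNNGNAA was present in 7 of the 9, among them Casp1, Il1a, Il1b and Il6 but neither Pycard nor Il18, and in 37.2% of all promoters. The STAT motif TTCNNNGAA occurred in Nlrp3 alone, and in 7.67% of all promoters. No single motif among the 7 searched was common to Il1a, Il1b and Il6 other than that of C/EBP.

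Il1rn, the receptor antagonist that limits interleukin-1 signalling, had the largest log2 fold change of the 9 genes. It stood at 6.55, 6.92 and 8.91 in control and at 8.38, 8.22 and 9.28 in CNT cultures. Il1rn was among the dimmest 30% of genes, and its values in control 1 and 2 may not be above background, so its fold is uncertain. Control 3 lay 1.99 above the other control cultures and within the range of the CNT cultures, while control 1 and 2 lay below all of them. Between the groups the log2 fold change was 1.16 (SE 0.66, 95% interval -0.43 to 2.76), or 2.24-fold, with unadjusted p = 0.125 in limma and an exact permutation p of 0.3. It was 1.89 without control 3 and 0.71 without control 1. Control 3 is the control culture that was high in the interferon-induced genes, and their part in the level of Il1rn was not tested.

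Tnf, the cytokine that acts through the receptors Tnfrsf1a and Tnfrsf1b, stood at 9.65, 8.98 and 10.15 in control and at 9.38, 10.46 and 10.68 in CNT cultures by its lead probe set. CNT 1 lay below 2 of the control cultures, and the log2 fold change was 0.59 (SE 0.43, 95% interval -0.47 to 1.64), or 1.501-fold (exact permutation p = 0.3). It was 0.28 without control 2, 0.33 without CNT 3 and 0.98 without CNT 1, where limma's unadjusted p was 0.0391 and its adjusted p 1.00. The further Tnf probe set gave 7.86, 7.93 and 7.81 in control and 8.01, 7.98 and 8.08 in CNT cultures. In that probe set the groups did not overlap, with a gap of 0.0470, as in 5.53% of all probe sets, yet the log2 fold change was only 0.15 (SE 0.09). Both Tnf probe sets thus had a positive difference, and they disagreed in its size and in the order of the cultures.

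Nos2 varied least of the 9 genes. It stood at 9.37, 9.46 and 9.38 in control and at 9.41, 9.48 and 9.25 in CNT cultures, a range of 0.225 over all 6 cultures. CNT and control differed by a log2 fold change of -0.021 (SE 0.10, 95% interval -0.27 to 0.22), or 0.985-fold (exact permutation p = 0.9). The upper bound of 0.22 lay under the values of Casp1 and Pycard, but the files give no detection call, and whether this probe set read above its background is unknown here. A further probe set is paired with Nos2 and another gene together and was not used.

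**Figure D3:**
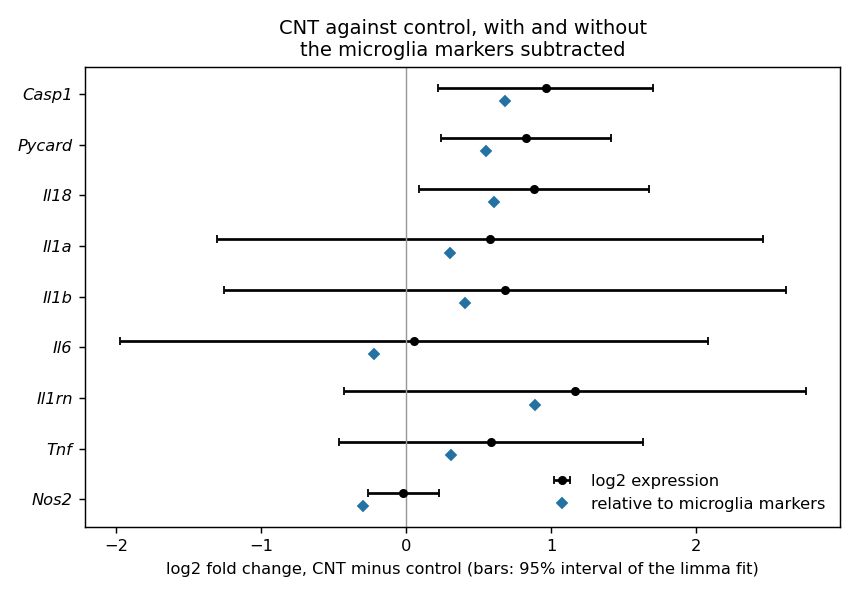
Log2 fold change, CNT minus control (horizontal axis), of the 9 genes with 95% intervals from limma, and beside each as a diamond without interval the difference after subtracting the mean of the microglia markers in each culture. The intervals of Casp1, Pycard and Il18 lie above 0 and those of the other 6 genes include 0.

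Since most of these genes are expressed by microglia and macrophages, each value was also taken relative to the mean of the 18 microglia and macrophage markers in the same culture. On that scale, which is a log2 difference from the markers, Pycard stood at -1.33, -1.31 and -1.44 in control and at -0.91, -0.69 and -0.83 in CNT cultures. Its groups stayed apart and its spread was smaller than before, with an SD of 0.07 in control and 0.11 in CNT cultures. Casp1 stood at -2.06, -1.96 and -1.39 in control and at -1.27, -1.20 and -0.89 in CNT cultures, and its groups did not overlap either. The differences between the group means were 0.55 for Pycard and 0.69 for Casp1, and 0.471% of all genes (67 genes) lay higher in every CNT culture on this scale. Before the subtraction that share was 5.94%. The subtraction also shifts genes that do not follow the markers, so shares on this scale are no fair background for genes of microglia. Il18, with a difference of 0.61, then overlapped between the groups, since control 3 at -1.002 exceeded CNT 1 at -1.25 and CNT 2 at -1.12. The differences of the other genes were 0.89 for Il1rn, 0.41 for Il1b, 0.31 for Tnf, 0.30 for Il1a, -0.22 for Il6 and -0.30 for Nos2, all with overlapping groups. Nos2 had -0.021 before the subtraction, so its value here comes mostly from the subtracted markers and not from Nos2 itself. On this scale limma took almost all of each gene's spread from the other genes, so no gene is called from its p. The count at an unadjusted p under 0.05, which rests on that spread, was 1 of 9, beside 0.724% of all genes, and none passed the adjusted threshold, beside 0.253%.

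The other genes of these pathways were taken from 9 lists, which held 123 genes without the 9 described, and 105 of them were measured. None passed the test over all genes, 80 had a positive and 25 a negative log2 fold change (58.5% of all genes were positive), and their median was 0.10 against 0.03 for all genes. At an unadjusted p under 0.05 in limma, 7 were higher (Nlrp6, Ninj1, Ltb, Tnfsf10, Tnfrsf1b, Gch1 and Tgfb1) and none lower, beside the 2.41% and 0.710% of all genes, and 10 were above every control culture and none below, beside 5.94% and 2.05% of all genes. The files give no detection calls, and the count was 3 when the dimmest 30% of genes were left out. That fit also changed the spread limma gave to the genes kept, so not every gene lost from the count was dim.

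Among 9 inflammasome sensors and adaptors 7 were positive (median 0.06) and 2 were above every control culture. These were the sensor Nlrp6, with a log2 fold change of 0.28 (SE 0.11), and the peptidoglycan sensor Nod1, with 0.39 (SE 0.16). Nlrp6 stood at 5.03, 5.12 and 5.33 in control and at 5.39, 5.43 and 5.50 in CNT cultures. Such values are low on this array and may not be above background. Card9, an adaptor of fungal recognition, had 0.51 (SE 0.31) with overlapping groups, and Txnip, a binding partner of Nlrp3, had 0.06 (SE 0.36). Among 6 further caspases and pore formers 4 were positive (median 0.17). Ninj1, which ruptures the membrane of dying cells, had 0.25 (SE 0.10) and was above every control culture, while Casp8 had 0.68 (SE 0.32) and Casp4, the caspase that senses lipopolysaccharide in the cytosol, 0.28 (SE 0.22), both with overlap.

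Of 10 further genes of the interleukin-1 family, 6 were positive (median 0.07) and none separated the groups. The alarmin Il33 stood at 10.95, 10.89 and 9.78 in control and at 9.53, 9.59 and 10.04 in CNT cultures, and its log2 fold change of -0.82 (SE 0.34) was opposite in sign to those of Il1a, Il1b and Il18. Control 3 was the lowest control culture for Il33. Il36b had 0.42 (SE 0.24), at values that are low on this array and may not be above background. The receptor chains Il1r1 and Il1rap had -0.19 (SE 0.29) and 0.13 (SE 0.10). Of 11 genes that relay the signal of the interleukin-1 and Toll-like receptors, 9 were positive (median 0.03) and none separated the groups. The kinase Irak2 had the largest value named, 0.67 (SE 0.30), beside 0.19 (SE 0.12) for the adaptor Myd88, 0.01 (SE 0.09) for Tab2 and -0.10 (SE 0.10) for the kinase Map3k7. Of 10 NF-kappaB proteins and inhibitors, 6 were positive (median 0.07) and none separated the groups, with 0.42 for Nfkb2, 0.19 for Nfkbiz, 0.11 for Rela and -0.06 for the kinase Chuk.

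All 13 measured genes of the TNF axis had a positive log2 fold change (median 0.25), beside 58.5% of all genes, but several lay near 0. Above every control culture were 3 of them, beside 5.94% of all genes, and 3 were higher at the unadjusted threshold. All measured genes were also positive in the endothelial (8), lymphocyte (8), neutrophil (5) and interferon-induced (19) lists. The TNF receptor Tnfrsf1b, found mainly on immune cells, stood at 7.73, 8.42 and 8.56 in control and at 8.74, 9.18 and 8.999 in CNT cultures, a log2 fold change of 0.74 (SE 0.25). The other receptor, Tnfrsf1a, had 0.01 (SE 0.14). The death ligand Tnfsf10, which interferons induce, stood at 4.12, 4.32 and 4.73 in control and at 5.19, 5.18 and 7.41 in CNT cultures. Its control values are low on this array and may not be above background, so no fold is given, and CNT 3 lay well above the other CNT cultures. Ltb, a membrane ligand of lymphotoxin receptors, had 0.64 (SE 0.21) with overlap. Of 12 genes of the interleukin-6 axis, 6 were positive (median 0.04), with 0.87 (SE 0.61) for Osm, 0.12 for Il11, 0.14 for the receptor Lifr, which alone separated the groups, and -0.04 for the kinase Jak1.

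Of 10 genes of nitric oxide and arginine metabolism, 7 were positive (median 0.06). Gch1, which makes the tetrahydrobiopterin that nitric oxide synthases need, stood at 9.78, 9.84 and 10.52 in control and at 10.52, 10.89 and 11.42 in CNT cultures, a log2 fold change of 0.90 (SE 0.30). It was the gene of this list with an unadjusted p under 0.05 (0.0226, adjusted p = 0.999 in limma), and its control 3 and CNT 1 values were equal to 2 decimals, whereas Nos2 itself had -0.021. The arginine carrier Slc7a2 had 0.21 and was above every control culture, but at values low on this array, while Asl had 0.24 and Odc1 0.04. Of 24 other cytokines and inflammatory products, 22 were positive (median 0.14) and 2 were above every control culture. Tgfb1, an anti-inflammatory cytokine of microglia among other cells, had 0.48 (SE 0.15), the chemokines Ccl3 and Ccl4 had 0.90 (SE 0.48) and 1.19 (SE 0.64) with overlapping groups, and the iron-binding protein gene Lcn2 had -0.04 (SE 0.29).

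**Figure D4:**
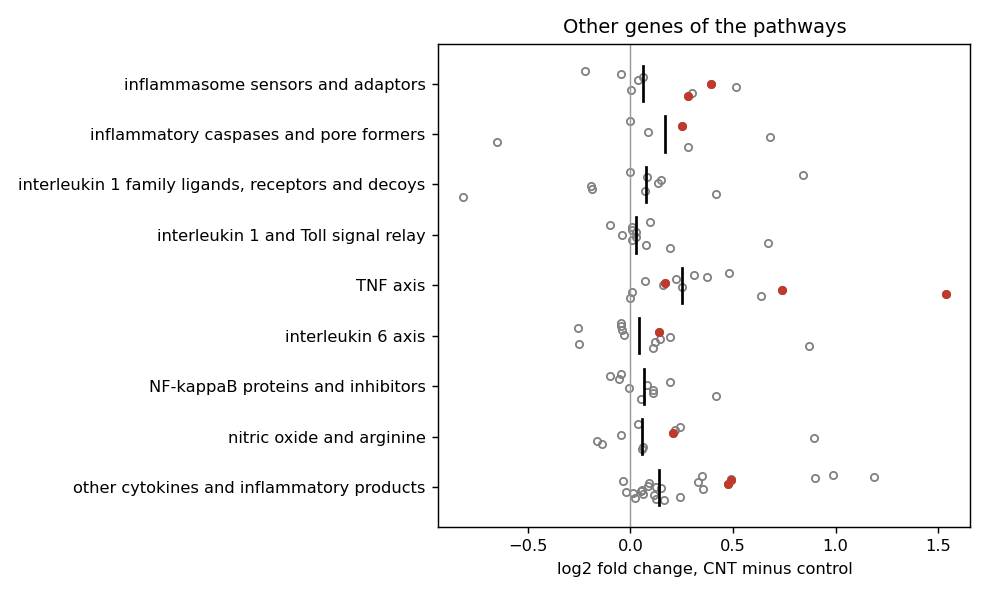
Log2 fold change, CNT minus control (horizontal axis), of the 105 measured genes in the 9 pathway lists, 1 point per gene, filled where every CNT culture lay above every control culture, with a bar at each list's median and a line at 0. All 13 genes of the TNF axis have positive values, and list medians range from 0.03 to 0.25.

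The lead of culture 3 over 1 log2 in both groups was found in 3 of the 105 pathway genes too, beside 0.549% of all genes. Cxcl2, a neutrophil chemokine, stood at 7.54, 7.45 and 11.94 in control and at 8.86, 8.82 and 12.21 in CNT cultures. Osm stood at 7.37, 7.80 and 9.25 in control and at 8.53, 8.51 and 9.98 in CNT cultures. Il18bp, which binds and blocks interleukin-18, stood at 8.61, 8.85 and 11.57 in control and at 9.92, 9.99 and 11.65 in CNT cultures. That culture 3 was the highest of its group in these genes follows from the rule that picked them. In Il18 itself CNT 3 lay below CNT 2.

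The genes whose centred values were nearest to those of the 3 widest ranging members were sought among all genes by the root mean square difference over the 6 cultures. For Il1b, with a range of 2.79, they were Plscr1 (0.117), Isg20 (0.262) and Areg (0.278). For Il1a, with a range of 2.90, they were Tmem130 (0.133), Rbp2 (0.202) and Isg20 (0.223). For Il1rn, with a range of 2.73, they were Bcl2a1 (0.182), Mmp7 (0.185) and Dusp2 (0.189). Isg20, an interferon-induced exonuclease gene, was near to both Il1a and Il1b.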

How the data were processed

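Total RNA of 3 control and 3 CNT cultures (100 ng each, 1 array per culture) was amplified, labelled and hybridized. RNA was extracted with TRIzol and RNeasy per the labels, and with the Absolutely RNA Nanoprep kit per the study's methods. The deposited values are log2 expression, which the authors computed by RMA (version not given in the sources used here) on the manufacturer's probe sets, whereas the methods name EntrezGene custom definitions of the probe sets for the paper's own analysis. RMA forces similar distributions on all arrays, and array medians lay between 9.66 and 9.74. Of the probe sets, 20826 were paired with 1 gene, 436 with several and 9780 with none, and 57 were controls, so that only the first were used. Genes were tested in R 4.3.3 with limma 3.58.1 (lmFit, then eBayes), and p-values were adjusted by Benjamini-Hochberg over 14217 genes at a threshold of 0.05. The study's rank product was not run here, as it permutes genes. The test was first tried on simulated data. The labels call the cultures biological replicates but name no animals, so p-values measure the spread between these cultures, and precision is limited by how few arrays there are.

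The members and all gene lists were chosen with earlier results of these data known. Named were all members, in each pathway list the 1 gene of highest mean and the 3 (at most) with the lowest unadjusted p, and the 3 genes nearest in pattern to each of the 3 members of widest range. The rule also took the genes of highest mean from the cell type and interferon lists, which are given here mainly by list means. The microglia markers named are the 2 with a lower mean in CNT cultures. Genes in which culture 3 led were chosen with their values in view. Alternative settings were array weights, a trend in eBayes, the replicate number as a block, averaged probe sets of a gene, median centring, cyclic loess, quantile normalization, a filter on the dimmest 30% of genes, the beta-actin difference as a covariate, values relative to the microglia markers, leaving out each array in turn and leaving out control 1 with CNT 2. Leaving out control 3 with CNT 3 was added after seeing the data. Promoters of 9 of the 10 listed genes came from RefSeq (GRCr8).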

Additional observations from a re-analysis of the deposited data

How the results depend on the processing

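No member and no pathway gene passed the adjusted threshold of limma under any alternative that was run. The number of members higher at an unadjusted p under 0.05 was 3 in the comparison as reported, 0 without control 1 and CNT 2 together, 1 relative to the microglia markers, and from 1 (without CNT 2) to 4 (without control 3) when each culture was left out in turn. Control 1 and CNT 2 were the cultures with the largest beta-actin differences. With that difference as a covariate the number was 3. The number of members above every control culture was 3, lay between 3 and 5 when each culture was left out (5 without control 3), was 5 without control 3 and CNT 3 together, and was 2 under quantile normalization, under cyclic loess and relative to the microglia markers. With fewer cultures a separation arises more easily, so the counts with cultures left out cannot be set against the 5.94% of all genes. The median log2 fold change of the members, 0.68, ranged from 0.33 (without CNT 3) to 1.20 (without control 3). The pathway genes higher at an unadjusted p under 0.05 numbered 7 as reported, 0 without control 1 and CNT 2, 17 without control 3 and CNT 3, 3 without the dimmest 30% of genes, 2 relative to the microglia markers, and from 1 (without control 1) to 16 (without control 3) with each culture left out. Shares of all genes were taken only for the comparison as reported and relative to the microglia markers, not for the other alternatives.

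The equal numbers were not taken to pair the cultures, since the labels do not tie them together. The paper's methods name 3 culture series for each condition and do not state a pairing. Deviations from the group means correlated over genes at -0.13, 0.36 and 0.51 for numbers 1, 2 and 3. For unlike numbers the correlations ranged from -0.71 (control 2 with CNT 3) to 0.68 (control 2 with CNT 1). Whether the cultures are paired is not known here. With the replicate number as a block, 5 members (Casp1, Pycard, Il18, Il1a and Il1rn) and 18 pathway genes were higher at an unadjusted p under 0.05. The share of all genes under the block was not taken, so these counts cannot be read as particular to the members. The SE of Il1a, which was higher on CNT at each of the 3 numbers, was 0.125 with the block and 0.774 without it (limma, adjusted p = 0.857 with the block).

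The log2 fold change of Il6 turned negative, at -0.41 with array weights, -0.22 relative to the microglia markers and -0.18 with control 3 and CNT 3 left out, and ranged from -0.78 (CNT 3 left out) to 0.65 (control 3 left out) over single cultures, being negative also at -0.29 when control 1 and at -0.20 when control 2 was left out. That of Nos2 turned positive, at 0.012 with array weights, 0.025 with median centring and 0.033 with control 3 and CNT 3 left out, and ranged from -0.069 (CNT 2 left out) to 0.044 (CNT 3 left out) over single cultures, with 0.0065 when control 2 was left out. With CNT 3 left out, Il1a was at -0.12 and Il1b at -0.024, and with control 3 left out they were at 1.20 and 1.30. The cause was not tested. Over the alternatives Casp1 stayed between 0.57 and 1.31, Pycard between 0.48 and 1.05, Il18 between 0.61 and 1.28 and Il1rn between 0.71 and 1.89. Il1rn, itself among the dimmest 30% of genes, had no value once these were left out.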
